A study of Mus musculus with 4 samples.

Results

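The regions described here are stretches of coding sequence that were open to the nuclease DNase I in mouse natural killer (NK) cells. DNase-seq cuts chromatin with DNase I, and dense cutting marks DNA that is not wrapped tightly in nucleosomes. The 4 libraries came from primary NK cells of virgin female B6CASTF1/J mice aged 2 months (C57BL/6J and CAST are the parent strains of this F1 hybrid) and were labelled biological replicates 1 to 4 of a single group. The labels give no treatment, tissue or sort gate, and the 4 biosamples carry the same donor identifier, so the spread between libraries may be partly technical. Peaks of the 4 libraries that touched were merged on the 19 autosomes. A region was kept when its midpoint lay in a coding (CDS) feature of a protein-coding gene, at more than 1000 bp from every annotated transcript start and from every protein-coding gene end. This left 1018 of 75963 regions, or 1.34%. They are set beside 21052 intronic regions that passed the same distance rules. Replicates 1 to 4 held 436, 529, 734 and 383 of the coding exon regions.

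Most coding sequence lies away from the promoters and enhancers where regulatory proteins bind. A codon can nevertheless sit within a binding site, and exonic enhancers and exonic sites of the insulator protein CTCF are known. CTCF folds chromosomes into loops and blocks contacts between enhancers and promoters. In NK cells, RUNX and ETS family factors and the T-box factors Eomes and T-bet bind the enhancers of cytotoxic and receptor genes. A footprint is a short stretch inside an open region where cutting drops, as it does under a bound protein.

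Sequences of the regions on which the results turn are printed here from the GRCm38.p6 (mm10) assembly, on the coding strand of the gene, 5′ to 3′. The 2 strongest regions come first, because one lies inside an exon and the other crosses a splice donor. Capitals mark bases in a footprint of at least 3 libraries. The Angptl6 stretch is chr9:20878180-20878479, minus strand, and the Sptbn4 stretch is chr7:27361461-27361680, minus strand.
Angptl6: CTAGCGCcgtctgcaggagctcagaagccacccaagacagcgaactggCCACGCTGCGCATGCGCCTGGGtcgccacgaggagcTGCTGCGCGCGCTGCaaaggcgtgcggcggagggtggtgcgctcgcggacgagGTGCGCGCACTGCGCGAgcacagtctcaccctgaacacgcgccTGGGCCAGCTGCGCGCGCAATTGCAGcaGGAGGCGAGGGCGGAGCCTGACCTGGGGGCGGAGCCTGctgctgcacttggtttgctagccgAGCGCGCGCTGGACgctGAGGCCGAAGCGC
Sptbn4: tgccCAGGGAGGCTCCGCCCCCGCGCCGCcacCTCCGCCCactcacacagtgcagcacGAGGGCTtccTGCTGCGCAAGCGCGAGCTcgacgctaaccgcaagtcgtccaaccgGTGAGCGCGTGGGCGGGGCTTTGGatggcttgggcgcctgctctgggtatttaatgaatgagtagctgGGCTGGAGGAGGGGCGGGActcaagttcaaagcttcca
Footprints of at least 3 libraries covered 152 of the 300 Angptl6 bases and 102 of the 220 Sptbn4 bases.

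The strongest coding exon regions with a footprinted CTCF match show how the site sits in the reading strand, with the CTCF match in capitals. Their positions are chr14:20661133-20661202 (Synpo2l, minus strand), chr1:75477548-75477617 (Chpf, minus), chr2:90474888-90474957 (Ptprj, minus) and chr8:71596088-71596157 (Pgls, plus).
Synpo2l: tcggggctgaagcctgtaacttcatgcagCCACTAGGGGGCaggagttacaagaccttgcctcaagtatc
Chpf: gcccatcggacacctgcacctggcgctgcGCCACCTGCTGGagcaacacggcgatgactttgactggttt
Ptprj: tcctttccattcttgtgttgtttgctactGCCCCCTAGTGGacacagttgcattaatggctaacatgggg
Pgls: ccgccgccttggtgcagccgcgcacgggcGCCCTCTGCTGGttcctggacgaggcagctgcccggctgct
The Synpo2l match read in the sense direction and the other 3 in the antisense direction. The Synpo2l, Chpf and Pgls matches lay in coding sequence, whereas the Ptprj match lay outside the short coding exon that held the midpoint of its region. Each of the 4 matches lay at least 80% within a footprint in all 4 libraries. A RUNX match, the letters TGTGGTT on either strand, is shown for Prr36 (chr8:4214485-4214554, minus strand) and Pmel (chr10:128716325-128716394, plus strand), the 2 strongest regions with a footprinted one.
Prr36: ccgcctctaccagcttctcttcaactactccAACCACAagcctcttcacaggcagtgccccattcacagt
Pmel: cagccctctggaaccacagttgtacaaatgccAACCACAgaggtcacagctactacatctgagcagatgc
Both capitalised RUNX matches were antisense, so the printed strand shows the reverse complement. The Pmel stretch holds the same letters a second time, in lower case upstream of the capitals. The capitalised Pmel match lay in a footprint of 3 libraries and the Prr36 match in a footprint of 1.

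The strongest regions lay in genes with and without a promoter peak. Only the gene's outermost 5′ end was taken as its promoter, so peaks at transcript starts more than 1000 bp from it were not counted. Among the 12 coding exon regions with the highest mean signal, 6 lay in genes whose promoter had no peak in the 4 libraries, 5 in genes with a promoter peak in all 4, and 1 in a gene with one in 2 libraries. A promoter without a peak in any library was found for 35.3% of all genes holding a coding exon region and 42.6% of all protein-coding autosomal genes. The signal is the authors' value per peak in a unit not stated, so levels of different libraries share no known scale. Angptl6, which encodes a secreted angiopoietin-like protein, had a signal of 10.4, 15.4, 19.7 and 22.9 in replicates 1 to 4. Replicate 4 was the highest here, and the Angptl6 promoter had no peak. The region covered 380 bases of the first of 5 coding exons, all of them coding, at 70.3% GC. It lay 1207 bp from the nearest GENCODE transcript start but 79 bp from a RefSeq model start outside the curated set, the nearest curated start being 1190 bp away.

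Sptbn4, the gene of a beta spectrin of the axonal membrane skeleton, had 8.39, 12, 16.8 and 14.8 in replicates 1 to 4. Its region ran over the downstream edge of coding exon 32 of 35, with 114 of 220 bases coding. The Sptbn4 promoter was also open, with a mean signal of 10.9 ± 2.29 (SD, n = 4). Zfyve28, which encodes a FYVE zinc finger protein of endosomes, had 5.26, 4.52, 12.8 and 7.52, with the highest value in replicate 3. Its region spanned the whole of coding exon 12 of 13. Ccdc194 had 6.17, 8.20, 8.91 and 5.84, with no promoter peak in any library. Prr36 had 6.62, 7.28, 10.5 and 3.59, and its region lay inside a coding exon of 2196 bases. The Prr36 promoter had a peak in 2 libraries.

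Psmc2, an ATPase subunit of the proteasome cap, had 5.69, 7.41, 7.38 and 3.81. Its region overlapped a curated RefSeq transcript start, so by RefSeq it is a promoter although GENCODE places the nearest start 1338 bp away. Unc13a, which primes synaptic vesicles for release, had 4.58, 6.54, 6.85 and 4.34 over the end of its last coding exon, at a RefSeq start outside the curated set. These 2 regions and that of Angptl6 are the ones among the 12 whose coding label depends most on the annotation used. Fbxl22, an F-box gene of striated muscle, had 3.92, 5.34, 5.90 and 5.27, at the highest GC content of the 12, 72.4%. Its promoter had no peak.

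Synpo2l, which encodes a cytoskeletal protein of the muscle Z-disc, had 4.31, 4.51, 6.11 and 2.84 and holds the sense CTCF match printed above. Its region lay in a coding exon of 2162 bases, and the promoter had no peak. Chpf, the chondroitin polymerizing factor, had 4.15, 4.66, 5.20 and 2.47, beside an open promoter of mean signal 11.4 ± 2.91 (SD, n = 4). Synpo, which encodes an actin-binding protein of podocytes and dendritic spines, had 3.36, 4.41, 4.38 and 3.42. Klf1, the erythroid Krüppel-like factor, had 3.13, 4.41, 4.37 and 3.14 over 240 coding bases of coding exon 2 of 3, at 69.6% GC. The Synpo and Klf1 promoters had no peak in any library. Across the 12 regions GC content ran between 54.7% and 72.4%, and 6 of them lay wholly inside a coding exon.

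**Figure D1:**
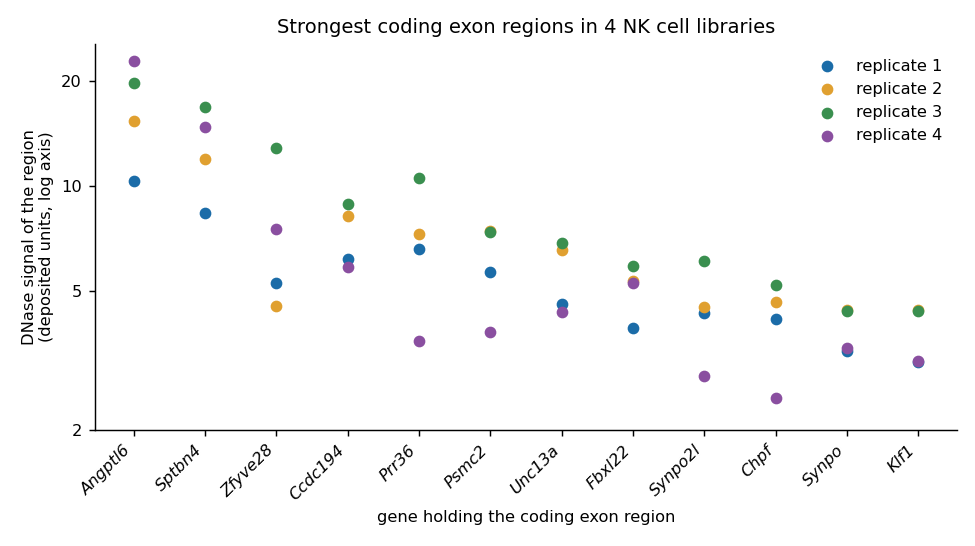
Signal of the 12 strongest coding exon regions (y axis, deposited units on a log axis) for each gene (x axis), with 1 point per replicate. Replicate 3 holds the highest point for 8 of the 12 genes and replicate 4 the lowest for 6, while replicate 4 is the highest for Angptl6.

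Coding sequence held more open regions per base than introns, but within most bins of equal local GC content it held fewer. Of the sequence passing the distance rules, 22.0 Mb was coding and 823 Mb intronic. A library held 23.7 ± 7.03 coding exon regions per Mb and 13.7 ± 6.34 intronic regions per Mb (SD, n = 4). The ratio was 1.82 ± 0.279, higher in 4 of 4 libraries and between 1.47 and 2.13. An exact two-sided sign-flip permutation test over the 4 libraries gave p = 0.13, the smallest p that 4 libraries allow. All tests between region classes below are this test with this floor, so none can pass 0.05.

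The comparison by GC content was added after these values were seen. Eligible coding sequence was 50.8% GC and eligible intron 42.3%, and regions of both classes were denser where the surrounding 200 bases were richer in GC. Where local GC was under 45%, libraries held 3.03 ± 2.61 coding exon and 3.11 ± 2.64 intronic regions per Mb. Here the ratio was 0.968 ± 0.0575, which did not differ from 1 beyond its spread. Between 45 and 50% GC the ratio was 0.670 ± 0.0670, and between 50 and 55% it was 0.684 ± 0.0379. Between 55 and 60% GC, coding exon regions numbered 32.4 ± 9.08 per Mb and intronic ones 64.5 ± 17.8, a ratio of 0.501 ± 0.0233. At 60% and over the densities were 84.4 ± 15.4 and 104 ± 20.1, a ratio of 0.811 ± 0.0530. Counted over the merged regions of all 4 libraries, they were 155.8 and 155.2 per Mb in this bin. In the 4 bins from 45% upward the coding density was lower in 4 of 4 libraries (exact sign-flip p = 0.13 in each). Sequence of 60% GC and over made up 10.7% of eligible coding sequence, against 0.741% of eligible intron.

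**Figure D2:**
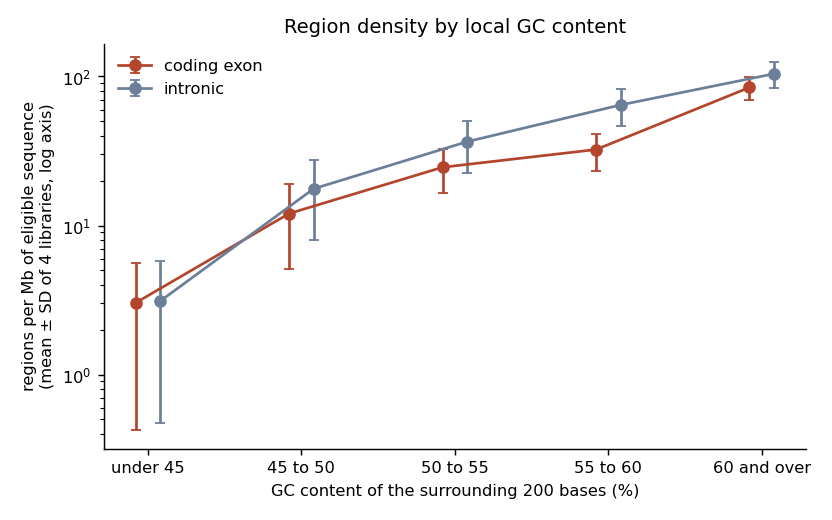
Regions per Mb of eligible sequence (y axis, log scale; mean ± SD of 4 libraries) by GC content of the surrounding 200 bases (x axis), for coding exon and intronic regions. The coding line lies under the intronic line in each bin from 45% upward, with a ratio of 0.501 between 55 and 60%.

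The regions themselves were rich in GC and CpG. Their median GC content was 57.1%, with quartiles of 51.9% and 62.3%, against a median of 50.4% in intronic regions. Per library the medians differed by 6.24 ± 0.186 percentage points (higher in 4 of 4 libraries, exact sign-flip p = 0.13). They held a median of 3.33 CpG per 100 bases, against 1.33 in intronic regions. By a CpG-island-like rule on GC content and CpG ratio, 29.0% of coding exon regions qualified, against 2.55% of intronic regions. Repeat-masked sequence made up 4.51% of the coding exon regions and 14.2% of the intronic ones. Coding exon regions found in at least 3 libraries had a median GC of 57.0%, and those found in 1 library also had 57.0%.

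Within genes, the density of open coding sequence varied with the place and length of the exon. In the longest coding transcript, single coding exons held 46.9 ± 10.9 regions per Mb and library, first coding exons 43.7 ± 15.2, last coding exons 32.4 ± 8.90 and internal ones 19.6 ± 5.99 (SD, n = 4). Single and first exons did not differ beyond their spread. Internal exons still held 623 of the regions, since they make up 78.0% of eligible coding sequence. Exons under 150 bases held 18.1 ± 6.95 regions per Mb, those of 150 to under 300 bases 23.4 ± 7.53, those of 300 to under 1000 bases 33.9 ± 6.51 and those of 1000 bases and over 26.2 ± 6.53. In each of the 4 libraries the density was higher at each step up to exons of under 1000 bases and lower again in those of 1000 bases and over. The median GC of the regions was 61.7% in single, 62.4% in first, 60.1% in last and 55.3% in internal exons. By exon length it was 53.9%, 56.1%, 62.4% and 59.7%, from shortest to longest. The part of GC content in these density differences was not tested. Found in at least 3 libraries were 24.7% of the regions in single, 26.7% in first, 33.0% in last and 38.4% in internal exons.

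The regions reached well beyond exon edges or stayed inside them. The coding share of a region had a median of 86.2%, and 436 regions were wholly coding. Regions lying inside a coding exon numbered 428, had a median width of 116 bases, and 17.8% of them were found in at least 3 of the 4 libraries. Regions over both edges of the exon numbered 229, had a median width of 257 bases, and 60.7% were found in at least 3 libraries. Across all autosomal regions this share was 47.1%. Regions over the upstream edge alone numbered 147 and those over the downstream edge 188, with 39.5% and 39.9% found in at least 3 libraries. Width moves with placement here, since a wide region must cross the edges of a short exon, and its part in the difference was not tested.

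**Figure D3:**
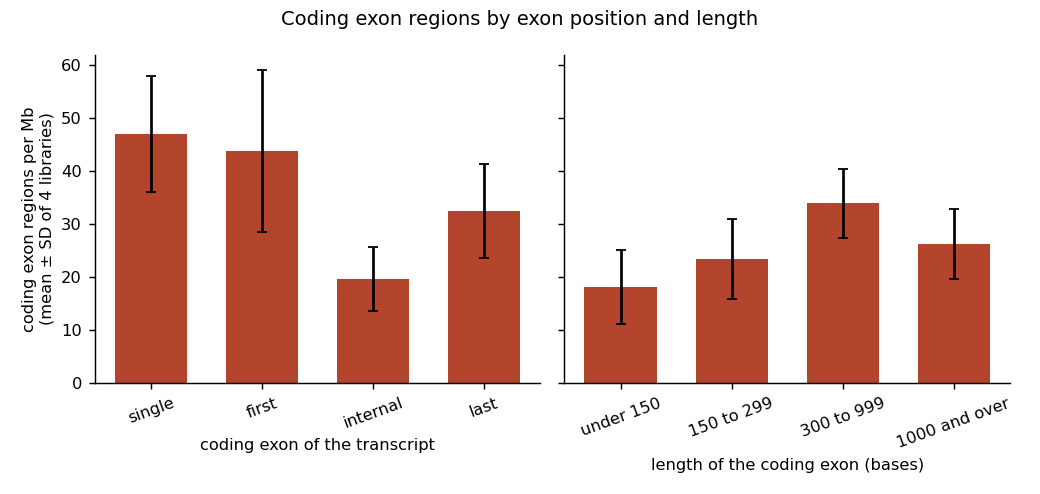
Coding exon regions per Mb of eligible coding sequence (y axis; bars are means and whiskers SD of 4 libraries) by position of the coding exon and by its length. Single and first coding exons are the densest positions at 46.9 and 43.7 per Mb, and internal exons the least dense at 19.6.

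Coding exon regions were often seen in a single library. In all, 356 regions (35%) had a peak in at least 3 libraries, against 38% of intronic and 40.8% of intergenic regions, and 232 had a peak in all 4. A single library accounted for 542 regions (53.2%), against 48.8% of intronic regions and 41.3% of all autosomal regions. Of the coding exon regions of a library, 64.9 ± 12.4% recurred in at least 2 of the other 3, against 71.6 ± 19.9% of its intronic regions. The difference was −6.71 ± 9.55 percentage points (SD, n = 4, exact sign-flip p = 0.375), and it was 5.32 points in the other direction in replicate 3. With replicate 3 left out and the other 3 libraries merged again, the share recurring in at least 1 of the other 2 differed by −9.72 points, lower in 3 of 3. In the authors' shorter peak list the 4-library difference was −1.16 points, with 2 of 4 libraries in each direction.

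The single-library share showed which libraries carried this. In replicate 1, 12.8% of coding exon regions and 6.32% of intronic regions were in no other library. In replicate 2 the shares were 19.1% and 9.38%. In replicate 4 they were 25.8% and 6.65%, the widest gap of the 4. In replicate 3, the library with most peaks, the order turned, with 39.0% of coding exon regions and 44.2% of intronic regions found nowhere else. Over 4 libraries the difference was 7.56 ± 10.1 points (exact sign-flip p = 0.25), within its spread. Replicate 3 supplied 52.8% of all single-library coding exon regions, against 80.6% of single-library intronic ones.

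**Figure D4:**
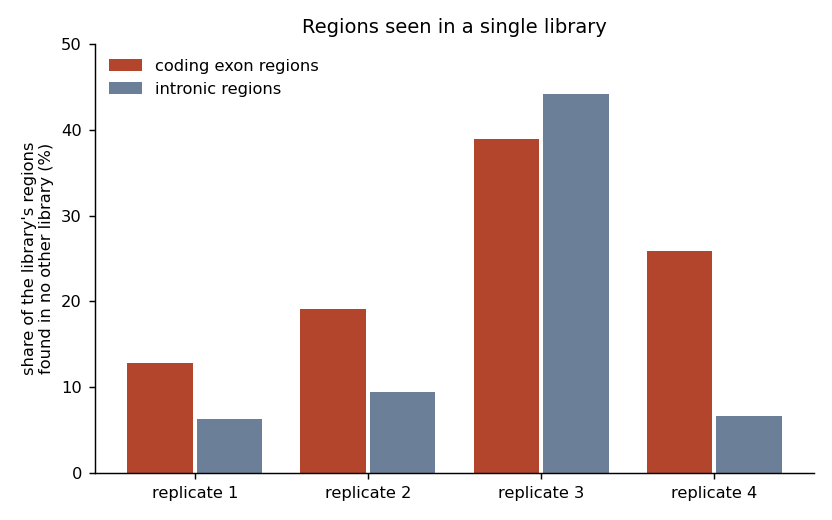
Share of each library's regions found in no other library (y axis, %) for coding exon and intronic regions in replicates 1 to 4 (x axis). The coding bar is the taller one in replicates 1, 2 and 4, and in replicate 3 the intronic bar is taller at 44.2% against 39.0%.

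The single-library share was also taken by signal and by GC content. When each library's coding exon and intronic regions were split by signal into 4 equal classes, the weakest class held 58.5 ± 16.5% single-library coding exon regions and 40.6 ± 29.7% single-library intronic regions. The difference there was 17.9 ± 21.5 points (SD, n = 4), higher in 3 of 4 libraries and within its spread. In signal classes 2, 3 and 4, from weaker to stronger, it was 0.459 ± 6.72, −1.29 ± 6.28 and −0.169 ± 1.26 points. Of the regions in the strongest class, 99.2 ± 0.590% of coding exon and 97.7 ± 3.61% of intronic ones recurred. In replicate 4, the single-library share was 5.71% of coding exon and 3.69% of intronic regions under 50% GC, and 19.5% and 5.38% between 50 and 55%. It was 26.7% and 8.30% between 55 and 60%, and 32.7% and 22.0% at 60% and over. In replicate 4 the coding share was the higher one in each of the 4 bins. In replicate 3 the coding and intronic shares were 54.3% and 51.3% under 50% GC, and 41.6% and 37.5% between 50 and 55%. They were 35.9% and 36.5% between 55 and 60%, and 30.4% and 42.4% at 60% and over. The coding exon regions found only in replicate 4 had a median GC of 60.6%, above the 54.7% of those found only in replicate 3.

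Coding exon peaks had a lower median signal and held a footprint less often than intronic peaks, by differences that the 4 libraries cannot bring past the threshold. The ratio of median signals within a library was 0.901 ± 0.0249 (SD, n = 4), below 1 in 4 of 4 libraries (exact sign-flip p = 0.13). In the authors' shorter peak list the log2 ratio was −0.01, against −0.15 in the longer list. Mean peak width was 191 ± 9.96 bases against 194 ± 7.03 bases. A footprint of the same library lay in 73.6 ± 2.42% of coding exon peaks and 78.1 ± 0.762% of intronic peaks, lower in 4 of 4 libraries (p = 0.13, exact sign-flip test). Within the weakest signal class the shares were 43.6 ± 6.11% and 45.4 ± 7.17%, and within the strongest 98.1 ± 0.587% and 98.0 ± 0.137%, so at matched signal the classes differed by less than their spread. The authors' false discovery rate reached below 0.001 in 59.4 ± 5.17% of coding exon regions with a peak, against 65.5 ± 3.72% of intronic ones.

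Motifs of NK cell factors were less frequent in the coding exon regions than in intronic ones. Searches covered both strands of the 150 bases centred on the midpoint of each region. In regions narrower than 150 bases this window ran into flanking sequence outside the region. Regions inside a coding exon, for example, had a median width of 116 bases. The CTCF consensus, which needs ambiguity letters and is given by name only, was found in 47 regions (4.62%), against 7.35% of intronic regions and 8.15% of coding exon, intronic and intergenic regions together. The RUNX letters TGTGGTT occurred in 62 regions (6.09%), against 10.4% of intronic and 9.58% of the 3 classes together. The ETS letters AGGAAGT occurred in 85 regions (8.35%), against 12% of intronic and 11.4% of the 3 classes. The T-box letters AGGTGTGA were in 0.786% of coding exon and 2.10% of intronic regions, and the AP-1 letters TGANTCA in 3.63% and 8.40%. When whole regions without flanks were searched, the CTCF share was 5.50% of coding exon and 7.64% of intronic regions. The corresponding shares were 7.86% and 13.2% for RUNX, and 9.82% and 15.5% for ETS. A match describes the sequence and is not evidence of a bound factor.

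The E-boxes CAGCTG and CAGGTG were more frequent in coding exon regions than in intronic ones. CAGCTG was in 15.8% of coding exon and 11.4% of intronic regions, and CAGGTG in 18.9% and 14.3%. Of the 18 motifs searched, the coding share was also higher for the E-box CACGTG (4.22% against 3.51%) and the CRE letters TGACGTCA (0.786% against 0.485%). It was slightly higher for the motifs named NFY, NRF1 and EGR, and lower for the rest. NRF1 and EGR matched in only 1 and 2 coding exon regions. A CTCF match can contain CAGGTG, as the Chpf match printed above does on its other strand. GC content moves with these shares. For RUNX the coding and intronic shares were 10.6% and 13% under 50% GC, 10.2% and 9.19% between 50 and 55%, 6.27% and 7.52% between 55 and 60%, and 1.36% and 3.77% at 60% and over. For AP-1 the coding share was lower in each of the 4 GC bins, at 5.63% against 9.14% under 50% GC and 2.72% against 6.71% at 60% and over. For ETS it was also lower in each of the 4 bins, at 9.38% against 11.9% under 50% GC and 5.45% against 8.09% at 60% and over. For CTCF it was 7.5% against 7.27% under 50% GC and 5.51% against 7.40% between 50 and 55%. Between 55 and 60% GC the CTCF shares were 5.88% against 8.39%, and at 60% and over 1.91% against 4.60%.

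**Figure D5:**
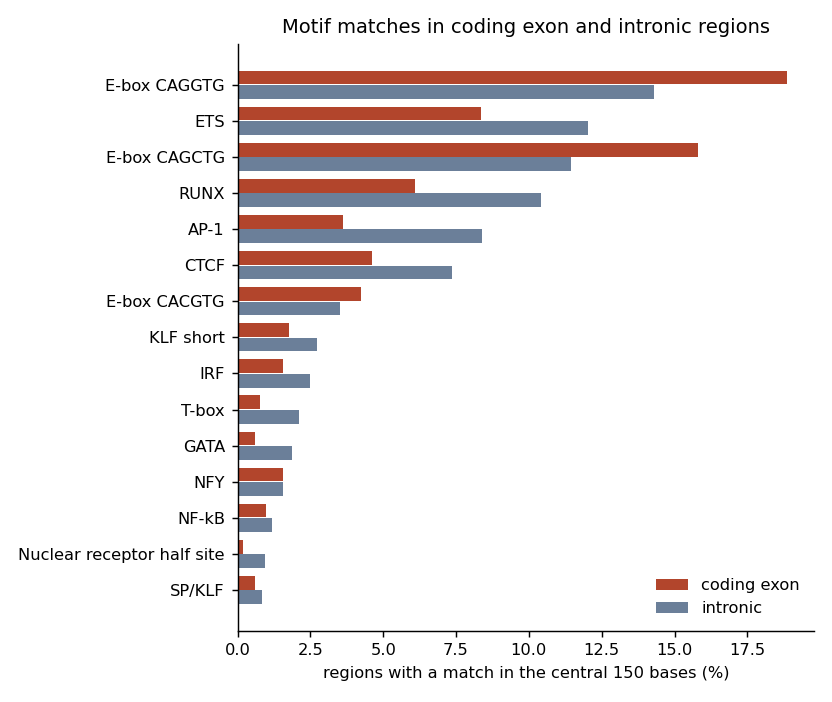
Share of regions with a motif match in the 150 bases centred on the midpoint (x axis, %) by motif (y axis), in coding exon and intronic regions. CRE, EGR and NRF1, the motifs rarest in intronic regions, are not drawn. The coding bar is shorter for ETS, RUNX, AP-1 and CTCF, and longer for the E-boxes CAGCTG and CAGGTG.

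Of the CTCF, RUNX and ETS matches, those of CTCF were most often open and most often footprinted. The CTCF consensus is longer than the RUNX and ETS letters and matched far less often, so the shares do not compare the factors on equal terms. Eligible coding sequence held 170 CTCF matches, of which 46 (27.1%) lay in an open region of any library, against 37.5% of 4424 intronic matches. Per library the shares were 20.9 ± 3.55% of coding and 26.2 ± 8.36% of intronic matches (SD, n = 4), lower for coding matches in 3 of 4 libraries. For RUNX, 2.24% of 3831 coding matches and 1.48% of 214521 intronic matches lay in an open region, and for ETS 1.99% of 5880 and 1.84% of 209026. Over their whole width the coding exon regions held 57 CTCF matches in 56 regions, 39 of them wholly in coding sequence. A footprint of at least 1 library covered 40 of the 57, and footprints of all 4 libraries covered 19. Per library, 67.6 ± 5.18% of CTCF matches in coding exon peaks and 59.2 ± 5.66% of those in intronic peaks lay in a footprint. The corresponding shares were 10.1 ± 3.58% and 7.70 ± 4.12% for RUNX, and 4.72 ± 1.40% and 6.39 ± 1.53% for ETS.

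CTCF matches ran against the reading strand more often than with it. Of the 57 in coding exon regions, 39 were antisense and 18 sense. The same lean was in the coding sequence as a whole, where 62.1% of CTCF matches were antisense, against 63.0% of the coding matches lying in an open region. Of the antisense coding matches 27.6% lay in an open region, and of the sense ones 26.6%. In introns 51.4% of CTCF matches were antisense.

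The other named CTCF regions had mean signals of 3.38 (Ptprj) and 3.36 (Pgls). Ptprj, the receptor tyrosine phosphatase CD148, had 3.15, 3.69, 4.49 and 2.20 in replicates 1 to 4, around a coding exon of 19 bases. Pgls, a lactonase of the pentose phosphate pathway, had 2.61, 3.71, 4.36 and 2.76, at 156 bp from a RefSeq start outside the curated set. In both, replicate 3 was the highest. Among the RUNX regions, Pmel, which encodes the melanosome fibril protein, had 2.44, 3.30, 5.44 and 2.72. Sgtb, a co-chaperone gene, had 2.23, 2.73, 3.21 and 1.5, and Nsmce1, a subunit gene of the SMC5/6 complex, had 1.63, 2.03, 2.57 and 1.60.

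Among the ETS regions, Adam1a, a sperm surface protease gene with a single coding exon, had 2.14, 2.09, 3.49 and 2.01. Spry4, an inhibitor of receptor tyrosine kinase signalling, had 1.14, 1.74, 3.25 and 1.85. Sult2b1, a sterol sulfotransferase gene, had 1.26, 1.40, 2.70 and 1.12, and Itpr3, the gene of an inositol trisphosphate receptor of the endoplasmic reticulum, had 1.32, 0.977, 2.66 and 1.24. Replicate 3 was the highest library in each of these 4 regions. It was also the highest for 162 of the 232 coding exon regions with a peak in all 4 libraries, whose median signals were 1.26, 1.35, 1.84 and 0.971 in replicates 1 to 4. This order between libraries cannot be told apart from the unknown scale of their signals.

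Coding exon regions lay in 884 protein-coding genes, 4.25% of the 20807 on the autosomes. Each NK cell gene list had 1 or 2 members among them. Of 31 NK receptor and adaptor genes 2 held one, of 24 cytotoxic effector genes 1, of 24 NK transcription factor genes 2, and of 24 cytokine receptor and trafficking genes 2. The lists of T cell genes (19), B cell and plasma cell genes (19) and housekeeping genes (22) had 0 with a region. The myeloid and dendritic cell list had 2 of 22 (Itgax and Flt3), the erythroid list 1 of 18 (Klf1), and the chromatin regulator list 2 of 28 (Arid1a and Kmt2a). Eligible coding sequence per gene differs between lists, with medians of 0.51 kb for NK receptors and 4.39 kb for chromatin regulators. With so few genes per list, these counts are not told apart from the overall share.

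Of the 7 regions in NK list genes, 2 were found in at least 3 libraries, beside 35% of all coding exon regions. S1pr1, the sphingosine 1-phosphate receptor for exit into blood and lymph, held the widest of all coding exon regions, 1140 bases with 983 coding. It had a signal of 1.97, 1.92, 1.99 and 0.951 in replicates 1 to 4, with the lowest deposited value in replicate 4. The start of its coding sequence is shown with bases in a footprint of any library in capitals, at chr3:115712777-115712943, minus strand.
S1pr1: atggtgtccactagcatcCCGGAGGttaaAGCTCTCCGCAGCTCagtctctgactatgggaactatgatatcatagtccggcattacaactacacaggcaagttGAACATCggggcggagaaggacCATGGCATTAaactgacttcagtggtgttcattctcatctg
The S1pr1 promoter was open in all 4 libraries, with a mean signal of 1.44 ± 0.314 (SD, n = 4), and the region lay 1972 bp from the nearest transcript start. S1pr5, the sphingosine 1-phosphate receptor that NK cells need to leave the bone marrow, had 1.21 and 1.08 in replicates 2 and 3 and no peak in replicates 1 and 4.

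Klre1, a lectin-like receptor gene of the NK gene complex, had 0.905, 0.775 and 1.89 in replicates 1 to 3 and no peak in replicate 4. Eomes, the T-box factor of NK cells, had 0.624 and 1.16 in replicates 2 and 3, within its last coding exon. Klrk1, which encodes the activating receptor NKG2D, and Zeb2, a zinc finger factor of NK cell maturation, had a peak in replicate 3 only, with signals of 1.21 and 0.756. Serpinb9, the inhibitor of granzyme B, had one of 0.503 in replicate 2 only, in sequence with 2 near-identical copies elsewhere in the genome, so reads could be placed among them. Replicate 3 had the highest signal in 5 of the 7 regions.

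The deposited signal at NK cell promoters was also highest in replicate 3. The summed promoter signal of 8 NK marker genes was 57.1 in replicate 3 and between 21.4 and 23.8 in the others, and 6 of the 8 were open in at least 3 libraries (Ncr1, Eomes, Prf1, Gzmb, Il2rb and Nkg7). Of 5 B cell markers, Cd79b, Ms4a1 and Pax5 were open in at least 3 libraries, with sums between 0.532 in replicate 3 and 4.71 in replicate 2. Of 5 T cell markers 4 had no peak in any library, with sums between 0 and 0.598, and the 5 myeloid markers had none. Since the scale of the signal in each library is unknown, the height of any single sum cannot be told apart from scaling. Replicate 3 held both the highest NK sum and the lowest B cell sum. In bulk libraries, fewer cells of a type and less open chromatin per cell cannot be told apart. The part of B cells and of depth in the differences between libraries was not tested.

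Most genes held a single coding exon region. By symbol, 777 genes had 1, 80 had 2, 21 had 3, 4 had 4 and 1 had 5. The gene with 5 was Tchh, which encodes trichohyalin of the hair follicle. All 5 lay in its coding exon of 4659 bases, and 4 of them were in replicate 3 only with signals between 0.216 and 0.299. The other Tchh region had 0.505, 0.463 and 0.316 in replicates 1 to 3. Cand2, a cullin regulator gene of muscle, held 3 regions in 1 exon of 1503 bases and another in its last exon. The strongest had 1.59, 1.49, 2.23 and 1.45 in replicates 1 to 4.

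Sp9, a zinc finger transcription factor gene of the SP family, held 4 regions in coding exon 2 of 2, the widest with 0.881, 1.08 and 0.880 in replicates 1 to 3 and none with a peak in replicate 4. Lzts3, which encodes a leucine zipper protein of synapses, held 4 regions of 1 or 2 libraries each, within 624 bp of a RefSeq start outside the curated set. Tubgcp2, a subunit gene of the gamma-tubulin ring complex, held 4 regions in coding exons 5 to 8, all in replicate 4 only and with signals between 0.135 and 0.221. After S1pr1, the widest region was that of Simc1, at 1100 bases and all coding. Simc1 had 1.48, 0.866, 2.25 and 0.798 in replicates 1 to 4.

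Genes with an open coding exon had an open promoter less often than genes with an open intronic region. Of the 884 host genes, 54.0% had a promoter peak in at least 3 libraries, against 64.1% of the 6892 genes with an intronic region and 51.2% of all protein-coding autosomal genes. Per library, the promoter was open for 60.6 ± 3.90% of coding exon hosts and 67.3 ± 2.17% of intronic hosts (SD, n = 4). The difference was −6.69 ± 1.84 points, lower in 4 of 4 libraries (p = 0.13, exact sign-flip test). Of the hosts of a region found in at least 3 libraries, 31.3% had no peak within 1000 bp of the gene's 5′ end in any library.

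The label of the regions held against other annotation for most of them. A curated RefSeq transcript start lay within 1 kb of 24 regions and any RefSeq start within 1 kb of 76, and 942 had none. Of these 942, 35.1% were found in at least 3 libraries, against 32.9% of the 76. A near-identical copy elsewhere in the genome was found for 27 regions. The 61 regions between 1000 and 1100 bp from the nearest transcript start or gene end had a median of mean signals of 0.156, and the 58 regions left out for lying up to 100 bp inside the limit also had 0.156. Of the 61 kept regions 27.9% were found in at least 3 libraries, and of the 58 left out 36.2%.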

How the data were processed

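DNase-seq was measured in 4 NK cell libraries. Per the deposited readmes, the authors made the peak, false discovery rate and footprint files of each library from its filtered mm10 alignments, without pooling. Reads of the CAST allele were thus placed on the mm10 reference, and how this acts on coding against intronic regions was not tested. Aligner, callers and settings were not given in the sources used here. For signal, the authors deposited 1 value per peak in an unstated unit. The deposited false discovery rates, read as q-value (p-value) measures, list bases under 0.05, and the authors' footprints carry a constant of 0.01. The files give no read counts, so depth is unknown and no counting interval is given; replicates 1 to 4 held 44113, 47496, 69168 and 36285 peaks. No per-sample column was left unused (0).

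The longer peak list was used. Genes came from GENCODE vM21 on GRCm38.p6. Intronic regions have a midpoint in a protein-coding gene and outside exons. The signal of a region is its highest peak, 0 in means without a peak. A promoter is open with a peak within 1000 bp of the gene's 5′ end. Eligible sequence passes the same distance rules. A motif counts as footprinted at 80% of its bases. CpG-island-like means over 50% GC and an observed-to-expected CpG ratio over 0.6. Copies have at least 90% identity over at least 80% of the region (minimap2 2.31-r1302). Samtools 1.23.1 and Python 3.11.15 with numpy 2.4.6 and pandas 2.3.3 were used. Class differences were taken within each library and tested by exact sign flips. The steps were tested on simulated data.

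The members, the 10 gene lists and the tests were chosen with earlier results of these data known. Named are the 12 strongest regions of all 4 libraries, the NK list regions, the 5 genes with most regions, the 4 strongest regions of all 4 libraries with a footprinted CTCF, RUNX or ETS match each, and the 3 widest, of which 1 is not reported here. Members of other lists are named only beside their counts, after their values were seen. No sequence of chromosome 18 (Synpo, Spry4) or of untranslated exons is printed. Alternatives were the shorter list, a coding share of at least 50% of bases, 2000 bp distances, basic transcripts, the 35219 strongest peaks of each library, each library left out, whole-region motif searches and a 500 bp promoter.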

Additional observations from a re-analysis of the deposited data

Results flagged for a closer look

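Of 39 sets of 4 library values tested for a library far from the others, 3 had one by Dixon's criterion for 4 samples. Chance alone flags about 1 in 20 such sets. The mean width of coding exon peaks was 175.77 bases in replicate 4, against 196, 195 and 196 bases in replicates 1 to 3. The S1pr1 region had a signal of 0.951428 in replicate 4, against 1.97, 1.92 and 1.99 in the others. The Adam1a region had a signal of 3.48841 in replicate 3, against 2.14, 2.09 and 2.01 in the others. Replicate 4 held the fewest peaks and replicate 3 the most, and their part in these values was not tested. The 2 signals cannot be told apart from the unknown scale of each library.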

How the results depend on the processing

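Under the other settings listed with the methods, 88 values stayed within a margin set for each result, 15 moved further and 0 changed sign. For class differences taken within each library the margin was their spread between libraries. The motif shares and the number of regions were taken over the merged libraries and have no such spread. The number of coding exon regions was 552 with the shorter peak list, 649 at 2000 bp and 568 with equal numbers of strongest peaks. The GC difference (points) was 5.87 with the shorter list, 7.33 at 50% coding bases and 5.04 at 2000 bp, and between 6.09 and 6.47 with 1 library left out. Within its spread, the recurrence difference was −1.16 points with the shorter list, against −6.71. The CTCF difference was −1.81 points with the shorter list. The footprint difference was −2.42 points with the shorter list. The promoter difference was −8.85 points at 50% coding bases and −8.62 at 2000 bp. The ETS difference was −5.39 points with equal peaks, −5.72 over whole regions and −2.01 at 2000 bp. The log2 signal ratio was −0.0128 with the shorter list and −0.0648 with equal peaks, and the log2 width ratio −0.0881 at 50% coding bases. The cause was not tested.

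The log2 density ratio was 0.85 over all eligible sequence. Within bins of local GC content, chosen after seeing the data, it reversed from 45% upward. It was −0.58 from 45 to 50%, −0.55 from 50 to 55%, −1.0 from 55 to 60% and −0.30 at 60% and over. Under 45% it was −0.0483 ± 0.0865 (SD, n = 4), within its spread. Over the merged regions of all 4 libraries, the densities at 60% and over were 155.8 coding and 155.2 intronic per Mb. Without replicate 3, and with the other libraries merged again, the single-library share of coding exon regions exceeded the intronic share by 9.72 ± 7.5 points (SD, n = 3, exact sign-flip p = 0.25, the smallest possible). No paired analysis was possible between sample groups because the 4 libraries form 1 group, and region classes were compared within each library. With 4 libraries no test between classes can pass 0.05, and unknown depth limits what can be said of weak regions.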

Other observations

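Coding exon regions in 2 or more exons of the same transcript were found in 61 genes. In 13 of these genes at least 2 exons were open in 1 and the same library only, which was replicate 3 for 6 genes, replicate 4 for 4 and replicate 2 for 3. Tubgcp2 had the most such exons, with 4 open in replicate 4 only. The authors' list of bases with a false discovery rate under 0.05 held 1954 bases of Tubgcp2 in replicate 4 and 603, 629 and 744 in replicates 1 to 3. Of these bases 50.3% lay in exons in replicate 4, against 92.9%, 89.0% and 75.3% in replicates 1 to 3. In number, 983 lay in exons in replicate 4 and 560 in each of replicates 1 to 3. Exons make up 3980 of the 40715 bases of the gene. Sytl3, whose product tethers secretory vesicles, had 3 such exons in replicate 2, and Zc3h12a, which encodes the RNase Regnase-1 of immune cells, had 3 in replicate 3. These genes were chosen after their values were seen.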
